A study of Mus musculus with 6 samples.

Results

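Arg1, Chil3, Retnla, Mrc1, Maoa, Wfdc17, Fstl1, Il4ra, Clec10a and Mgl2 are genes that mark, or have been linked to, alternatively activated macrophages. These 10 genes were taken by symbol from a table of 55487 mouse genes and were compared between 2 groups of cultured bone marrow cells; they were chosen on their rlog values in this same comparison. The labels describe the cells as positive for Kit, a receptor of haematopoietic stem and progenitor cells. They were transduced with a lentivirus that overexpressed either wild type MLLT3 (WT, 3 libraries) or MLLT3 carrying K63E and K67E (DM, 3 libraries), 2 substitutions in the YEATS domain, which reads acylated histones. After sorting, both groups grew for 8 days in methylcellulose with mFlt3L at 10 ng/mL, with mIL-11, mIL-6, mIL-3, mGMCSF, mSCF, hEPO and hTPO at 20 ng/mL each, with gentamycin, and with 200 nM 4-hydroxytamoxifen, which was added to delete the Mllt3 gene of the cells. Interleukin-4 and interleukin-13 are not among the cytokines named. The labels name neither the allele that was deleted nor the age of the mice, and do not say whether replicates came from separate animals or cultures, so p-values measure only the spread between these libraries.

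Macrophages take on an alternatively activated state when interleukin-4 or interleukin-13 binds a receptor that contains the product of Il4ra, which activates the transcription factor STAT6. Mouse macrophages in this state produce arginase 1, the chitinase-like protein Ym1 (Chil3) and the resistin-like protein RELM-alpha (Retnla), and carry lectins such as the mannose receptor (Mrc1) and the galactose-binding lectins MGL1 (Clec10a) and MGL2 (Mgl2). Several of these genes are also active in other myeloid cells, among them Chil3 in bone marrow neutrophil and monocyte precursors and Clec10a in dendritic cells.

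The deposited values are regularized log (rlog) values, normalised counts on the log2 scale in which genes with few reads are pulled toward their own mean, so that changes of weakly expressed genes are understated. A change below is the difference of mean rlog values, DM minus WT, with its standard error (SE) from the limma fit over all 18766 genes with a mean of at least 3. Sequencing depth is unknown, because the table holds no counts. The median over tested genes lay between 8.03 and 8.11 in the 6 libraries, and all were labelled batch 1. Kit was high in every library, between 14.29 and 14.9. Which cells carried it cannot be told from bulk values, and mast cell markers were high too, as given below. Mllt3, supplied by the vector and targeted in the genome, lay between 12.44 and 12.87 in WT and between 11.99 and 12.44 in DM (change -0.48, limma adjusted p 0.0448, from 0.000949 to 0.161 over 12 alternatives). Its call was lost in 6 of these, without the filter on the mean, without the mean-variance trend, and when WT replicate 1 or 2 or DM replicate 2 or 3 was left out, with changes from -0.62 to -0.36 when 1 library was left out. In bulk RNA, fewer cells of a type and less RNA per cell cannot be told apart.

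The 10 genes did not move as 1 group. The means of 6 members were higher and of 4 were lower in DM, and the median change was 0.16, against 0.01 over all genes tested. The 3 DM libraries lay above the 3 WT libraries for Fstl1, Wfdc17, Maoa and Mrc1, and below them for Arg1, Mgl2 and Retnla, while the groups overlapped for Il4ra, Chil3 and Clec10a. Over all genes tested, the groups did not overlap for 35.8%, of which 21.5% of tested genes were higher and 14.3% lower in DM. At a limma adjusted p under 0.05, 6 members were past the threshold, 4 higher and 2 lower, against 13.9% of all genes tested (9.2% higher and 4.71% lower). The number of members past the threshold was 3 without DM replicate 2 (Arg1, Mgl2 and Wfdc17), 4 without WT replicate 1 or DM replicate 3 (those and Maoa), and 5 without WT replicate 3, when Mrc1 was not among them. After quantile normalization it was 6, with Chil3 in place of Mrc1, and the called genes of the whole table were 51.3% higher in place of 66.1%. Since the 10 genes were chosen on this comparison, nothing is read from these counts, and no p-value is given for a member. All 10 passed the filter on the mean.

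**Figure D1:**
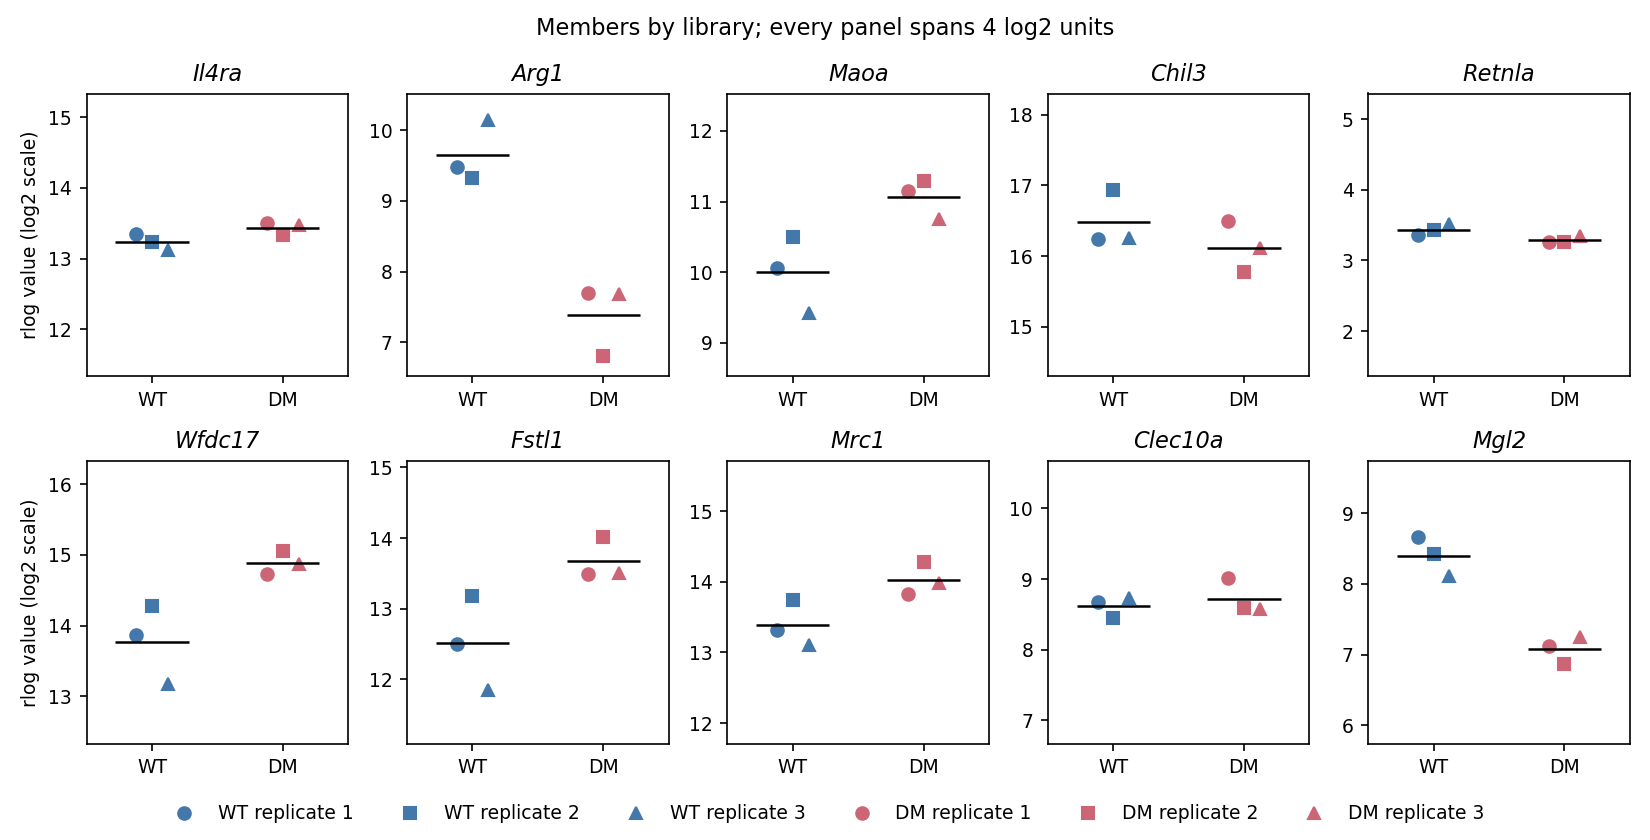
The rlog values (log2 scale) of the 10 genes in each of the 3 WT and 3 DM libraries, with black lines at the group means; each panel spans the same range of 4 log2 units. Arg1 and Mgl2 lie lower in every DM library, Wfdc17, Fstl1, Maoa and Mrc1 lie higher, and the changes of the remaining 4 genes lie between -0.36 and 0.21.

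The level of each gene was compared per kilobase of exon, as the mean rlog value minus the log2 of the exon length. On this scale Chil3 stood highest in WT, at 15.77, above 99.9% of tested genes, and Wfdc17 followed at 14.68. Mrc1 (10.71), Il4ra (10.65) and Fstl1 (10.22) formed a middle group, above 95.2%, 95.0% and 93.2% of tested genes. Arg1 (8.49), Maoa (7.94), Mgl2 (7.33) and Clec10a (7.08) lay nearer to the median of 6.34, and Retnla was lowest at 4.17. These are levels in WT, and neighbours such as Mrc1 and Il4ra, or Mgl2 and Clec10a, differed by less than the spread between replicates. In DM the mean level of Wfdc17 was 15.79 per kilobase and that of Chil3 15.41, the opposite order to that of the WT means. This order held in DM replicates 2 and 3, while in DM replicate 1 Chil3 (15.78) was still above Wfdc17 (15.64). The DM means of Arg1 (6.24) and Mgl2 (6.01) lay just under the median. All DM libraries were below it for Mgl2, but for Arg1 only DM replicate 2 was, at 5.65, with DM replicates 1 and 3 at 6.54 and 6.52.

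**Figure D2:**
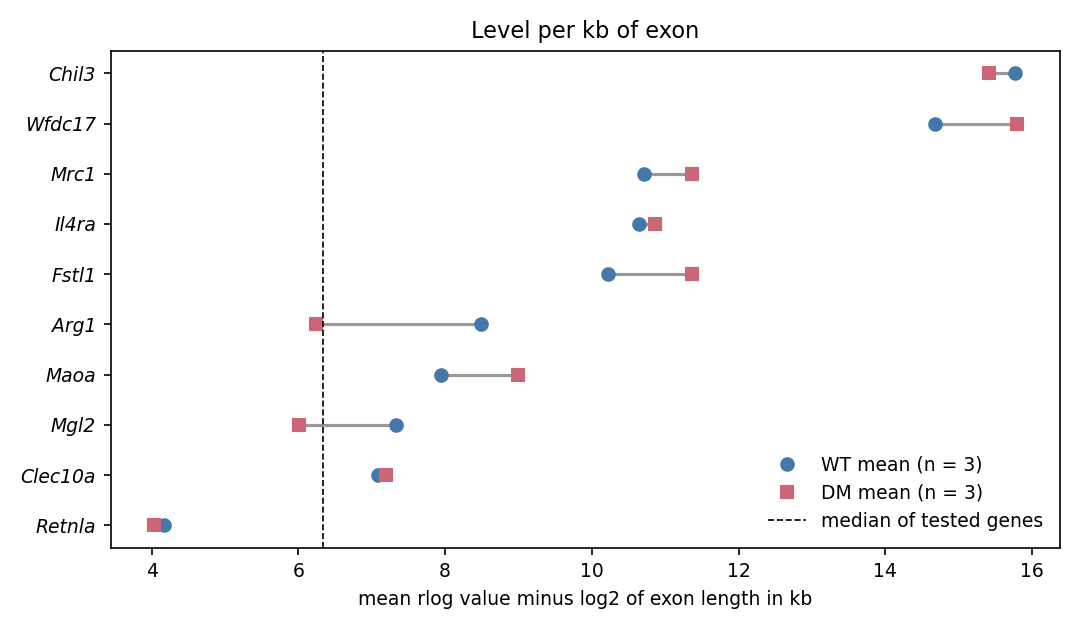
Group means per kilobase of exon (mean rlog value minus log2 of exon length in kb; n = 3 libraries per group) for the 10 genes, with a dashed line at the median of tested genes. The mean of Wfdc17 is above that of Chil3 in DM, though not in DM replicate 1, and the means of Arg1 and Mgl2 lie above the median in WT and just below it in DM.

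Il4ra (ENSMUSG00000030748.9; chromosome 7, 125552120 to 125579474, plus strand, GRCm38), which encodes the receptor chain shared by interleukin-4 and interleukin-13, had rlog values of 13.35, 13.23 and 13.12 in WT against 13.51, 13.33 and 13.48 in DM. The groups overlapped, since DM replicate 2 lay below WT replicate 1. The change was 0.21 (SE 0.0872), and 0.05 after quantile normalization. The annotation places the antisense gene Gm44876 within Il4ra, with means of 3.21 and 3.19, and whether strand was used in counting is not given in the sources used here.

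The other genes of the pathway were read from a list of 17 genes for interleukin-4 and interleukin-13 signalling, of which 16 were tested and 4 were called, 3 higher and 1 lower, with a median change of 0.16. Over all genes tested, 13.9% were called, 9.2% higher and 4.71% lower, and these shares stand beside this list and those below. The lists were chosen with earlier results of these data known, so their counts are a description only. The ligand genes were Il4 (6.34 ± 0.178 in WT and 6.11 ± 0.157 in DM, SD, n = 3) and Il13 (6.43 ± 0.15 and 6.29 ± 0.0749). Both lay below the median rlog value of tested genes (8.03 to 8.11 over the libraries), without a correction for exon length. Neither passed the test (limma adjusted p 0.19 and 0.314). The partner chains of the receptor were both called higher. Il2rg, the common gamma chain, rose by 0.48 (SE 0.0723, limma adjusted p 0.00423), and Il13ra1, which pairs with the Il4ra product to bind either cytokine, rose by 0.42 (SE 0.121, adjusted p 0.0456). Stat6, which carries the signal to the nucleus, had a change of 0.26 (SE 0.0898, adjusted p 0.0872) and was not called. In 2 alternatives it was called, without WT replicate 2 (0.34, adjusted p 0.0237) and with the replicate number as a block (limma adjusted p 0.013). Socs3, a feedback inhibitor of cytokine receptors, rose by 0.65 (SE 0.0903, adjusted p 0.00307), and Jak3, the kinase bound to the common gamma chain, fell by 0.28 (SE 0.0733, adjusted p 0.032). Il13ra2, a decoy receptor for interleukin-13, stood at -1.97 in all libraries, at the bottom of the range of the table. The count of called genes was 2 when WT replicate 1 or DM replicate 2 or 3 was left out, and 7 in the absence of WT replicate 2. Il13ra1 lost its call in 8 of 12 alternatives (adjusted p from 0.00425 to 0.158), among them quantile normalization and leaving out WT replicate 1 or 3 or DM replicate 2 or 3, with changes from 0.34 to 0.55 when 1 library was left out. Jak3 lost its call in 6 (adjusted p from 0.00528 to 0.139), in each case but 1 by leaving out a library other than WT replicate 3, with changes from -0.32 to -0.23.

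Arg1 (ENSMUSG00000019987.9; chromosome 10, 24915221 to 24927484, minus strand), which encodes the arginase that turns arginine into ornithine and urea, had the largest difference of the 10 genes. Its rlog values were 9.48, 9.32 and 10.14 in WT against 7.7, 6.8 and 7.68 in DM. Every DM library lay below every WT library, with DM replicate 2 the lowest and WT replicate 3 the highest. The mean was 9.65 ± 0.434 in WT and 7.39 ± 0.512 in DM (SD, n = 3), a change of -2.25 (SE 0.255), or 4.77-fold lower on the rlog scale. Only 8 of the 18766 tested genes, Arg1 included, were lower by this much or more. The change ran from -2.42 to -1.96 over the 12 alternatives.

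The genes around arginase were read from a list of 15 genes for arginine and polyamine metabolism, all of them tested. Of these, 6 were called, 3 higher and 3 lower (13.9% of all genes tested were called), with a median change of 0.06. Nos2, the inducible nitric oxide synthase that competes with arginase for arginine and marks classical activation, fell by 0.93 (SE 0.14, limma adjusted p 0.00442), in the same direction as the mean of Arg1. Ass1, which makes the precursor of arginine from citrulline, rose by 0.72 (SE 0.137, adjusted p 0.00975), and Slc7a2, an arginine transporter, rose by 0.67 (SE 0.173, adjusted p 0.0296). Azin1, an inhibitor of antizyme that spares ornithine decarboxylase, rose by 0.33 (SE 0.0875, adjusted p 0.034). Slc7a1, the other arginine transporter called, fell by 0.32 (SE 0.0715, adjusted p 0.0174, lost without WT replicate 1 or DM replicate 2 or 3, from 0.00158 to 0.0831 over 12 alternatives), so the genes that supply arginine moved in both directions. The mitochondrial arginase gene Arg2 had a change of 0.36 (SE 0.107, adjusted p 0.0526) and was not called. It was called with a minimum mean of 5 (limma adjusted p 0.034) and when WT replicate 2 (0.0482) or DM replicate 1 (0.0226) was left out. The count of called genes was 2 without WT replicate 1 or DM replicate 2 and 3 without WT replicate 3 or DM replicate 3. Slc7a2 kept its call without 1 library only when that was WT replicate 2 (adjusted p from 0.00107 to 0.1 over 12 alternatives, changes from 0.5 to 0.91 without 1 library), and so did Azin1 (0.00504 to 0.136, changes from 0.27 to 0.41).

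Maoa (ENSMUSG00000025037.6; chromosome X, 16619698 to 16687818, plus strand), which encodes a mitochondrial enzyme that oxidises serotonin and noradrenaline and is induced by interleukin-4 in monocytes, had values of 10.06, 10.5 and 9.43 in WT against 11.15, 11.29 and 10.75 in DM. All DM libraries lay above all WT libraries, and WT replicate 3 was the lowest of the 6. The mean went from 10.0 ± 0.535 to 11.06 ± 0.284 (SD, n = 3), a change of 1.07 (SE 0.231), or 2.09-fold. Its neighbour and paralog Maob had a change of 0.1 (SE 0.137, limma adjusted p 0.657).

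Chil3 (ENSMUSG00000040809.10; chromosome 3, 106147554 to 106167564, minus strand), which encodes Ym1, had values of 16.24, 16.93 and 16.26 in WT against 16.49, 15.77 and 16.11 in DM. DM replicate 1 lay above WT replicates 1 and 3, so the groups overlapped. The change was -0.36 (SE 0.216), and it ran from -0.63 with quantile normalization to -0.13 without WT replicate 2. Leaving out DM replicate 2 gave -0.18, and leaving out DM replicate 1 gave -0.54. The near-identical gene Chil4 stood at 4.24 in WT and 4.11 in DM, and reads that match both copies make the values of either gene uncertain.

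Retnla (ENSMUSG00000061100.5; chromosome 16, 48842551 to 48844461, plus strand, from an annotation entry with another version number) had the lowest values of the 10 genes, 3.36, 3.43 and 3.51 in WT against 3.26, 3.26 and 3.35 in DM. The groups were apart by a margin far smaller than the spread within either, with DM replicate 3 just below WT replicate 1. The change was -0.14 (SE 0.0494), at a level where rlog values hold little of the original difference. The promoters of Retnla and Chil3 are shown because both genes are textbook targets of STAT6; a match is a description of the letters and no binding site. They are from RefSeq on GRCm38.p6, 5′ to 3′, from 250 bases before to 50 after the start, with matches to the motifs searched in capitals (Retnla chr16:48842359-48842658, plus strand; Chil3 chr3:106167515-106167814, minus strand).
Retnla: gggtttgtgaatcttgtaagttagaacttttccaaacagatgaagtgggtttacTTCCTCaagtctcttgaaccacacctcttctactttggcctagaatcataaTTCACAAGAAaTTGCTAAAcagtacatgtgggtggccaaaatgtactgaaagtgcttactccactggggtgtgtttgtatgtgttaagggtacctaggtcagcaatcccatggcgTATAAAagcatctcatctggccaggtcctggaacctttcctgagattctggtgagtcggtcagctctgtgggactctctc
Chil3: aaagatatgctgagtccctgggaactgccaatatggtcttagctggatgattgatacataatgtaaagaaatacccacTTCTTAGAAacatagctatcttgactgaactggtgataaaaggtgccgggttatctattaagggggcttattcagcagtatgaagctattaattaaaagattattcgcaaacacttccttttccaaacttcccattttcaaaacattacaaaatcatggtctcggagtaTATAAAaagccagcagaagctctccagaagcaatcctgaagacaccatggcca
In Retnla the capitals mark, in order, a PU.1 element, a STAT6-type element 145 bases before the start, a C/EBP element 134 bases before it and a TATAAA match 30 bases before it. In Chil3 they mark a STAT element with the shorter spacer, 172 bases before the start, and a TATAAA match 3 bases before it.

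Wfdc17 (ENSMUSG00000069792.5; chromosome 11, 83703991 to 83706268, plus strand), which encodes a small secreted protein with a whey acidic protein domain found in activated macrophages, had values of 13.86, 14.28 and 13.17 in WT against 14.73, 15.06 and 14.87 in DM. Every DM library lay above every WT library, and the DM libraries were close together. The mean went from 13.77 ± 0.559 to 14.89 ± 0.164 (SD, n = 3), a change of 1.11 (SE 0.227), or 2.16-fold. Fstl1 (ENSMUSG00000022816.11; chromosome 16, 37776873 to 37836514, plus strand), which encodes a secreted glycoprotein of the follistatin and SPARC family best known from mesenchymal cells, had values of 12.5, 13.18 and 11.85 in WT against 13.49, 14.02 and 13.5 in DM. All DM libraries lay above all WT libraries, with WT replicate 2 the nearest to them and WT replicate 3 the lowest of all. The mean went from 12.51 ± 0.664 to 13.67 ± 0.302 (SD, n = 3), a change of 1.16 (SE 0.277), or 2.23-fold. A change of 1 or more on the log2 scale was present in 3 members that were higher (Fstl1, Wfdc17 and Maoa), against 0.0639% of all genes tested, and in 2 that were lower (Arg1 and Mgl2), against 0.368%, a property the choice of members used.

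Mrc1 (ENSMUSG00000026712.3; chromosome 2, 14229392 to 14332057, plus strand), which encodes the mannose receptor CD206, had values of 13.31, 13.74 and 13.11 in WT against 13.83, 14.28 and 13.98 in DM. The groups were apart by a small margin, with WT replicate 2 just below DM replicate 1. The mean went from 13.39 ± 0.324 to 14.03 ± 0.233 (SD, n = 3), a change of 0.64 (SE 0.162), or 1.56-fold. The microRNA gene Mir511 lies within Mrc1 on the same strand and stood at 1.24 and 1.26.

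The genes for MGL2 and MGL1 differed from each other in what they did. Mgl2 (ENSMUSG00000040950.13; chromosome 11, 70130329 to 70137550, plus strand) and Clec10a (ENSMUSG00000000318.16; chromosome 11, 70156197 to 70170834, plus strand) are neighbours with 18646 bases and 0 annotated genes between them, and encode similar galactose-type lectins. The values of Mgl2 were 8.66, 8.42 and 8.11 in WT against 7.12, 6.87 and 7.25 in DM, so that all DM libraries lay well below all WT libraries. Its change was -1.32 (SE 0.14), or 2.49-fold lower, and it ran from -1.46 to -1.19 over the alternatives. The values of Clec10a were 8.67, 8.45 and 8.73 in WT against 9.01, 8.59 and 8.57 in DM. Here the groups overlapped, with a change of 0.1 (SE 0.124) that was -0.04 without DM replicate 1. Within a library, Mgl2 minus Clec10a was -0.01, -0.02 and -0.63 in WT and -1.89, -1.72 and -1.32 in DM. The difference between the genes thus widened from -0.22 ± 0.351 to -1.64 ± 0.292 (SD, n = 3), with no overlap between groups. Reads shared by the paralogs would blur this contrast, and how they were assigned is not given in the sources used here.

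**Figure D3:**
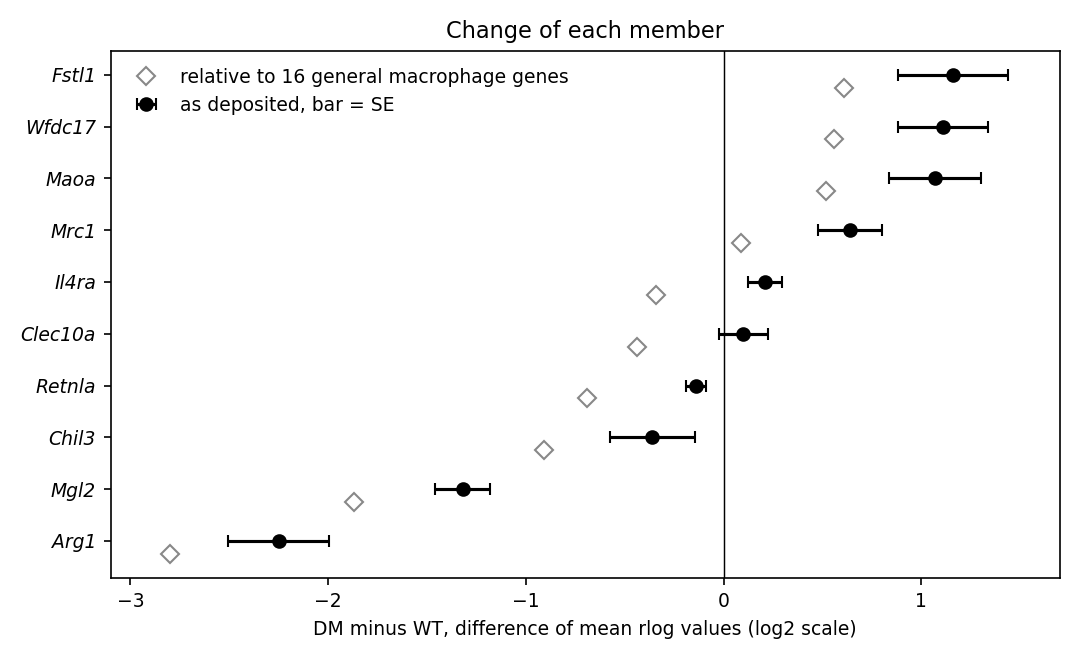
Change of each of the 10 genes from WT to DM (difference of mean rlog values, log2 scale; filled points with SE bars, n = 3 libraries per group) and the same change relative to the mean of 16 general macrophage genes in each library (open diamonds). The values run from -2.25 for Arg1 to 1.16 for Fstl1, and relative to the macrophage genes from -2.8 to 0.61.

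The promoters of Mrc1 and Wfdc17, which were higher in DM, and of Mgl2, which was lower, are shown to compare genes that moved in opposite directions. They are from the same RefSeq table, with motif matches in capitals (Mrc1 chr2:14229164-14229463, plus strand; Wfdc17 chr11:83703806-83704105, plus strand; Mgl2 chr11:70130107-70130406, plus strand).
Mrc1: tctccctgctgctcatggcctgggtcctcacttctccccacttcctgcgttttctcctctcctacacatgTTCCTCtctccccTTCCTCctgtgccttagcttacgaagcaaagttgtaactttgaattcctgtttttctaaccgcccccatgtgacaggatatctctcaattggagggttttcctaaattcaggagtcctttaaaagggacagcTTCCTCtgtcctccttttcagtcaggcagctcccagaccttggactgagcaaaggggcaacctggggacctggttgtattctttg
Wfdc17: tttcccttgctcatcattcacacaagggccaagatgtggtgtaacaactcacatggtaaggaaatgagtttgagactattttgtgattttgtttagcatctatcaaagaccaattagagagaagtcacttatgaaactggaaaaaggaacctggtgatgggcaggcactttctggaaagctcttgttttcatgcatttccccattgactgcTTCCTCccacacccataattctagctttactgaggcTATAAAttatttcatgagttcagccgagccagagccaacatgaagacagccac
Mgl2: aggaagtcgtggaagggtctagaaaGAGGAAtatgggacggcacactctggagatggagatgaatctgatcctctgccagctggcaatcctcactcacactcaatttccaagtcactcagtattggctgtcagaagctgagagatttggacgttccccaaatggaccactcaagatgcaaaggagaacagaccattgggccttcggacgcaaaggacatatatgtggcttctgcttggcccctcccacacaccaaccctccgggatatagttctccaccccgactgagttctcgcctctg
The capitals mark 3 PU.1 elements in Mrc1, a PU.1 element and a TATAAA match in Wfdc17, and a PU.1 element 225 bases before the start in Mgl2. Promoters were found for 8 of the 10 genes, not for Arg1 and Clec10a. The PU.1 element GAGGAA was present in 5 of the 8 (Mrc1, Mgl2, Wfdc17, Fstl1 and Retnla), against 28.3% of 32851 promoters of the same length, so it stood in genes of both directions. The STAT6-type element, TTC and GAA with any 4 bases between them, was present in Retnla alone (6.95% of all promoters), and the shorter STAT element TTCNNNGAA in Chil3 alone (8.3%). The C/EBP element TTGCNNAA was present in Retnla and Maoa (10.8%), and the letters TATAAA in Chil3, Wfdc17 and Retnla (13.6%, at any position). These letters began 30 bases before the annotated start in Retnla, but 3 bases before it in Chil3 and Wfdc17. The AP-1 element TGANTCA (7.81%) and the E-box CACGTG (7.15%) were present in none of the 8. Each motif was searched on both strands, and none of the matches in these 8 promoters shared bases. The promoters of Il4ra and Fstl1 held 25 and 21 CpG dinucleotides, Maoa 14 and Mgl2 8, while Mrc1, Chil3, Retnla and Wfdc17 held 3, 3, 2 and 1, against a median of 7.

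General macrophage genes moved beside the members that were higher. Of 19 such genes, 16 were tested and 11 were called, all 11 higher in DM, with a median change of 0.59. The count was from 8 to 11 when 1 library was left out, and 13.9% of all genes tested were called. Gpnmb, a glycoprotein of lipid-laden macrophages, rose by 0.96 (SE 0.194, limma adjusted p 0.012), and Ctss, a lysosomal protease, by 0.96 (SE 0.193, adjusted p 0.0115). Cd68, a lysosomal membrane protein of macrophages, rose by 0.94 (SE 0.167, adjusted p 0.00777). Lyz2, the myeloid lysozyme, rose by 0.86 (SE 0.193, adjusted p 0.0176) but lost its call when WT replicate 1 or 3 or DM replicate 2 was left out (adjusted p from 0.000592 to 0.0966 over 12 alternatives, changes from 0.71 to 1.05 without 1 library). The summed level of the 19 genes, taken on the linear scale and given as log2, lay between 18.4 and 19.08 in WT and between 19.4 and 19.76 in DM. The tissue macrophage genes C1qa, Vsig4 and Timd4 were below 3 in every library.

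The members were also read relative to the mean rlog value of the 16 tested macrophage genes in the same library, a comparison added after the data were seen. That mean was 11.12, 11.42 and 11.09 in WT against 11.64, 11.87 and 11.76 in DM. Each gene counts equally in it, also C1qb and C1qc, which lay close to the filter and hardly changed (-0.05 and -0.09). Abundant genes such as Lyz2 (0.86) and Gpnmb (0.96) rose by more than the mean did (0.55). A reference led by these would give lower relative changes, for Mrc1 as well, and was not used. On this relative scale Mrc1 changed by 0.09, with 2.2, 2.32 and 2.01 in WT against 2.19, 2.42 and 2.21 in DM, and its groups overlapped. Maoa (0.52) and Fstl1 (0.61) also had overlapping groups, and Wfdc17 (0.56) was the 1 member that stayed apart and higher. Arg1 (-2.8) and Mgl2 (-1.87) were apart and lower. Chil3 (-0.91) was too, but its own change was -0.36 with overlapping groups, and the rest is the higher macrophage mean in DM. Retnla (-0.69) was too, but since its own values hardly vary, this is mostly the 0.55 by which the macrophage mean was higher in DM, with the sign turned, and says little of Retnla. Chil3 relative to these genes was 5.13, 5.51 and 5.17 in WT against 4.84, 3.9 and 4.34 in DM. The changes of Il4ra (-0.34) and Clec10a (-0.44) had the opposite sign to those as deposited, with overlapping groups.

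Across the 6 libraries, Wfdc17, Fstl1, Maoa and Mrc1 shared an order among the WT libraries, with replicate 2 highest and replicate 3 lowest, and in each of the 4 genes DM replicate 2 was the highest of all. The mean of the 16 macrophage genes had the same order in WT and the same highest library in DM. Among 408 genes with a mean of at least 6 and a range of at least 1, those with the profile most like each member were named by Pearson's r over the 6 libraries, as a description in which the difference between groups has a large share. For Mrc1 these were Plxnb2 (0.998), Selenop (0.998) and Hip1 (0.994), and for Fstl1 they were Igf1, Lrpap1 and Mr1 (0.997 each). For Wfdc17 they were Scpep1 (0.996), Pdpn (0.995) and 4930430E12Rik (0.995), and for Maoa they were Plpp3, Kazn and Stac2 (0.995 each). Arg1 was most like Ccl24 (0.989), a gene of the alternative activation list below, which encodes a chemokine that attracts eosinophils. The eosinophil granule genes Prg3 (0.981) and Prg2 (0.977) followed. Mgl2 was most like Vegfa, Fads2 and Clec2i (0.995 each), and Retnla like St8sia1 (0.984), the neutrophil receptor gene Cxcr2 (0.983) and Hp (0.981). For Clec10a, Il4ra and Chil3 the highest r was 0.883, 0.803 and 0.722.

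**Figure D4:**
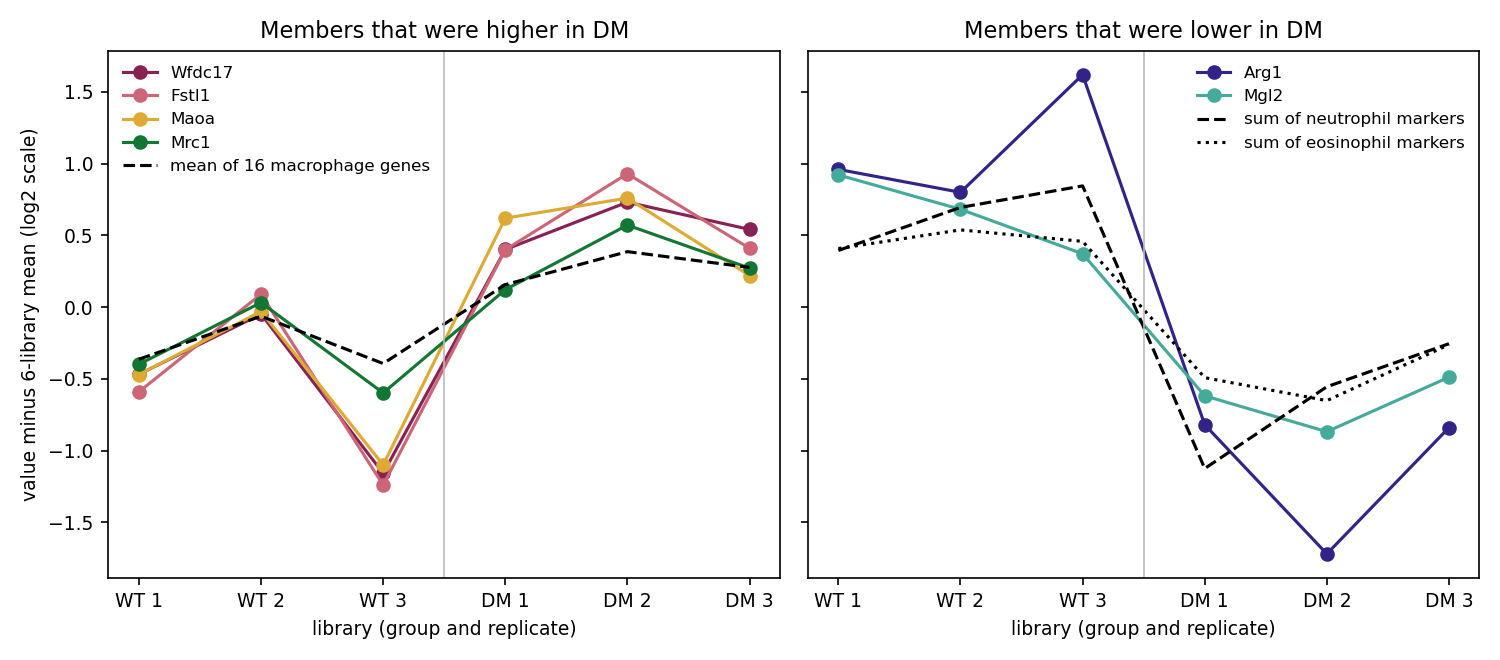
Values of 6 of the 10 genes in each library minus their 6-library mean (log2 scale), on the left with the mean of 16 macrophage genes and on the right with the summed level of neutrophil and eosinophil markers; lines only join the values of a gene, since replicates have no order. The 4 genes on the left share a low WT replicate 3 and a high DM replicate 2, and Arg1 on the right is highest in WT replicate 3 and lowest in DM replicate 2.

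Neutrophil markers and 3 eosinophil granule genes were lower in DM beside the members that were lower. The summed levels of the other marker lists were not. The summed level of 15 neutrophil markers lay between 18.55 and 19.0 in WT and between 17.03 and 17.9 in DM, and 14 of the 15 were called, all 14 lower. The summed level of 9 eosinophil markers lay between 15.24 and 15.37 in WT and between 14.18 and 14.57 in DM, and 3 were called, all 3 lower. Epx and Prg2 had the highest values of this list in WT and carried most of the sum. The neutrophil granule genes Mpo, Elane and Prtn3 and the progenitor gene Ms4a3 fell by 4.23, 3.96, 3.37 and 2.7 (limma adjusted p 0.000444, 0.000118, 0.000118 and 0.000102). The eosinophil granule genes Epx, Prg3 and Prg2 fell by 1.46, 1.29 and 1.16 (adjusted p 0.000118, 0.000118 and 0.00381), the last 2 of them neighbouring paralogs. The other 6 eosinophil markers were not called, with changes of -0.62 for Ear1, 0.29 for Ear2, 0.15 for Ear6, -0.17 for Siglecf, -0.11 for Ccr3 and -0.12 for Il5ra. Ear1 was called with a minimum mean of 5 (limma adjusted p 0.0473) and when DM replicate 3 was left out (-0.85, adjusted p 0.0294). The summed level of 13 mast cell and basophil markers lay between 18.9 and 19.27 in WT and between 18.92 and 19.4 in DM, with Mcpt1 (change 1.32) called higher and Hdc (-0.62) called lower. The change of Mcpt1 was 0.81 when DM replicate 2 was left out and 1.84 when DM replicate 3 was, and its call was lost in 9 of 12 alternatives. For 12 dendritic cell markers the sum lay between 12.03 and 12.82 in WT and between 13.12 and 13.36 in DM, with Itgax, Irf8 (0.56) and Clec9a (0.23) called higher and Flt3 (-0.3) called lower of 8 tested, and with Xcr1, Cd209a, Siglech and Ccr9 below 3 in every library. The highest of them was Itgax, also a macrophage gene, which rose by 0.98 (SE 0.193, limma adjusted p 0.0108). For 14 stromal and endothelial markers the sum lay between 12.64 and 12.79 in WT and between 12.6 and 12.84 in DM, with Col1a1 (-0.37) and Pdgfrb (-0.36) called lower, and Dcn, Lum, Postn and Emcn were below 3 in every library, beside rlog values of Fstl1 of 11.85 or more in each. Nearly all of this sum was Pecam1 (12.6 in WT and 12.64 in DM), which blood cells also express. The means of 6 of the 9 tested stromal and endothelial genes were lower in DM, 5 of them with no overlap between groups (14.3% of all genes tested), and 3 were higher. Of these 8 mast cell, dendritic and stromal genes, Itgax and Pdgfrb kept their calls in all 12 alternatives, and the other 6 did not. The part of any of these cell types in the members' values was not tested.

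Other genes of the alternative activation programme were read from a list of 28, of which 27 were tested. Of these, 15 were called, 11 higher and 4 lower, with a median change of 0.24, so these genes also moved in both directions. The count was from 11 to 16 when 1 library was left out, and 13.9% of all genes tested were called. Atp6v0d2, a proton pump subunit, rose by 0.99 (SE 0.198, limma adjusted p 0.0114), Clec7a, the beta-glucan receptor Dectin-1, by 0.9 (SE 0.165, adjusted p 0.00838), and Trem2, a lipid receptor, by 0.89 (SE 0.149, adjusted p 0.00638). Ccl24 had values of 7.12, 7.26 and 7.63 in WT against 6.28, 5.92 and 6.47 in DM and fell by 1.11 (SE 0.154, adjusted p 0.00308). These 4 genes kept their calls in all 12 alternatives.

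A list of 22 genes of classical activation, the state induced by interferon-gamma and bacterial products, was read beside it. Of the 20 tested, 8 were called, 6 higher and 2 lower (13.9% of all genes tested were called), with a median change of 0.23. The scavenger receptor gene Marco, the itaconate synthesis gene Acod1 and the cytokine gene Tnf rose by 0.99, 0.63 and 0.62 (limma adjusted p 0.0342, 0.0203 and 0.00385). Nos2, which this list shares with that of arginine metabolism, fell as given above. The count was 4 without WT replicate 1 and 5 without DM replicate 1. Marco lost its call without WT replicate 1 or 3 or DM replicate 1 or 2 (adjusted p from 0.000761 to 0.113 over 12 alternatives, changes from 0.67 to 1.29 without 1 library), and Acod1 without WT replicate 1 or DM replicate 1 or 3 (0.00792 to 0.0709, changes from 0.49 to 0.76).

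Among 28 relatives of the 10 genes in their protein families, 18 were tested and 8 were called, 3 higher and 5 lower (13.9% of all genes tested were called). Their median change was -0.13. Chil1, another chitinase-like gene, fell by 1.08 (SE 0.2, limma adjusted p 0.00893), and Retnlg, a resistin-like gene of neutrophils on the same chromosome as Retnla, fell by 0.77 (SE 0.114, adjusted p 0.00418). Ly75, a relative of the mannose receptor, rose by 0.68 (SE 0.143, adjusted p 0.014), and Wfdc21, which shares the whey acidic protein domain with Wfdc17, rose by 0.57 (SE 0.117, adjusted p 0.0127). The count was 3 or 5 when WT replicate 1 or 3 was left out, and 2 or 4 when DM replicate 2 or 3 was. Ly75 lost its call without WT replicate 1 or DM replicate 2 (adjusted p from 0.000489 to 0.0547 over 12 alternatives, changes from 0.57 to 0.84 without 1 library), and Wfdc21 without WT replicate 1 or DM replicate 2 or 3 (0.000526 to 0.0565, changes from 0.48 to 0.68).

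**Figure D5:**
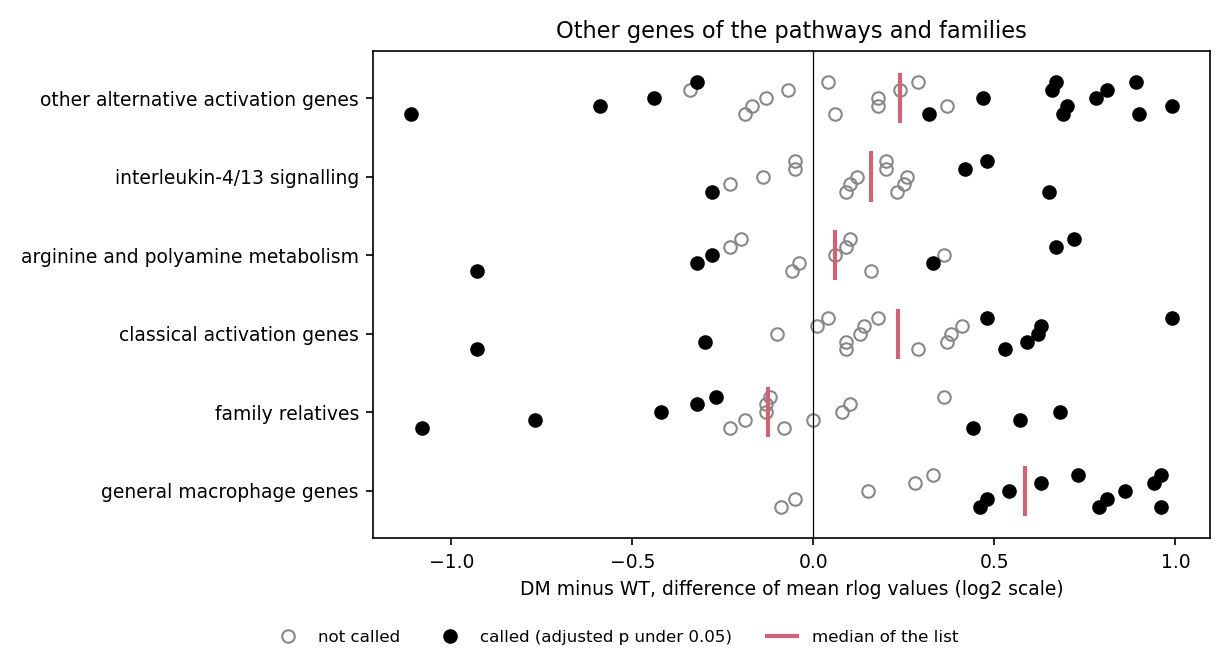
Change from WT to DM (difference of mean rlog values, log2 scale) of each tested gene in 6 lists, with filled points for genes called by limma at an adjusted p under 0.05, open points for the rest, and red bars at the list medians. The median lies at 0.59 for the general macrophage genes, at 0.24 and 0.23 for the alternative and classical activation genes, and at -0.13 for the relatives of the 10 genes.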

How the data were processed

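The deposited table held regularized log values on the log2 scale, made by the authors and recognised by the table's name and its values (-1.97 to 21.88, not whole). Per the submitters' processing notes, cutadapt 2.6, STAR 2.7.3, DESeq2 1.30.0 and the build mm10 were used. The counting tool, the annotation and the use of strand are not given in the sources used here. The 142699 lines were merged into 55487 genes, and 99.5% of their identifiers matched GENCODE M21 (GRCm38) without the version number, which supplied coordinates and exon lengths. Genes with a mean of at least 3 were fitted with limma 3.58.1 in R 4.3.3 (lmFit, eBayes with a trend), DM against WT without covariates, with Benjamini-Hochberg adjustment over 18766 genes and a threshold of 0.05. On simulated data it recovered 95.5% of genes changed by 0.5 and 100% of those changed by 1 or 2 on the log2 scale. There were 15 false calls among 18766 genes. The simulation changed 200 genes and drew normal values independently for each gene and library. It held no deviations shared across genes within a library, so these rates do not carry over to the real libraries.

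The 10 genes and the 11 gene lists were chosen with earlier results of these data known. Of each list, up to 4 called genes with the largest changes are named, with the receptor, ligand and STAT6 genes of the interleukin-4 list. Arg2, Maob, Chil4, Slc7a1, Il13ra2, Pecam1, C1qb, C1qc and the eosinophil markers not called were added after their values were seen. Arg2, Nos2, Chil4 and Cd209a are each in 2 lists. The alternatives were no filter, a mean of at least 5, no trend, quantile normalization, centring on the median, a replicate block, and each library left out. Figures were drawn with matplotlib 3.10.9.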

Additional observations from a re-analysis of the deposited data

How the results depend on the processing

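The count over all genes was 2611, and from 1119 to 3475 without 1 library; it was lowest without DM replicate 2 (1119), WT replicate 1 (1185) and DM replicate 3 (1537). For interleukin-4 and interleukin-13 signalling it was 4, and from 2 to 7, for arginine and polyamine metabolism 6, and from 2 to 6, for classical activation 8, and from 4 to 9, and for family relatives 8, and from 2 to 9. For the other alternative activation genes it was 15, and from 11 to 16, and for the general macrophage genes 11, and from 8 to 11. Without the filter on the mean, 2 genes of the interleukin-4 list were called. The replicate numbers were not taken to pair the libraries, since the labels state no pairing. Deviations of same-numbered libraries correlated at 0.491, 0.116 and 0.041 across genes, and WT replicate 3 correlated best with DM replicate 2 (0.124). WT replicate 1 and DM replicate 1 correlated negatively with every other library of the opposite group (-0.336 to -0.161). Whether the libraries of replicate 1 were paired cannot be told from this. With the replicate number as a block, 3742 genes were called, and 8 of the interleukin-4 list, Stat6 among them (limma adjusted p 0.013); Arg2 (0.0038) and Ear1 (0.0358) were called too. The number of the 10 genes whose groups did not overlap was 7, and between 6 and 8 with a mean of at least 5, with quantile normalization, with centring and without 1 library. Relative to the macrophage genes it was 5, among them Chil3 and Retnla, whose relative changes are mostly that of the reference. The changes of Il4ra and Clec10a reversed there, to -0.34 and -0.44. The change of Clec10a also reversed, to -0.04, without DM replicate 1, and ran up to 0.18 when another library was left out. Maob, close to 0.1, reversed to -0.01 with quantile normalization and -0.05 without DM replicate 1, and ran up to 0.21. Pecam1 likewise reversed to -0.09 and -0.02 under these settings, and ran up to 0.11. The cause was not tested. Little can be said of Retnla, whose values are close to the filter and shrunken.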
